A study of Mus musculus with 6 samples.

Results

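The 8 genes followed here are 5 cadherins, *Cdh1*, *Cdh2*, *Cdh3*, *Cdh11* and *Cdh13*, and 3 catenins, *Ctnna1*, *Ctnnb1* and *Ctnnd1*, taken by name from the 54418 gene identifiers of the deposited count table. The rule names the genes and sets no threshold on a measured value, though earlier results of these data were known when it was written, and all 8 passed the filter on low counts. Their transcripts were measured by RNA sequencing in mammary cells that were sorted by flow cytometry from 3 Glis2+/+ and 3 Glis2-/- C57BL/6 females at 4 weeks of age, with 1 library for each mouse. The Glis2-/- mice carry a germline knockout of *Glis2*, a Krüppel-like zinc finger factor, and the Glis2+/+ mice are wild type for it. The knockout was present in every cell of the mouse, so that a difference in the sorted cells can have started in another cell type. Dissociated glands were stained for TER-119, CD31, CD45, CD24 and CD49f before sorting. The study describes the sorted cells as mammary epithelial cells, without parting basal from luminal cells.

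Cadherins are calcium-dependent adhesion proteins whose extracellular repeats bind cadherins of a neighbouring cell. The cytoplasmic tail of a classical cadherin binds β-catenin (*Ctnnb1*) and p120-catenin (*Ctnnd1*), β-catenin binds α-catenin (*Ctnna1*), and α-catenin links the complex to actin, which together make the adherens junction. β-catenin is also the transcriptional effector of canonical Wnt signaling. E-cadherin (*Cdh1*) joins epithelial cells, P-cadherin (*Cdh3*) is known from the basal, myoepithelial layer of the mammary duct, and N-cadherin (*Cdh2*) and cadherin-11 (*Cdh11*) are known from mesenchymal cells and as partners of an E-cadherin loss in epithelial-mesenchymal transition (EMT). T-cadherin (*Cdh13*) is held in the membrane by a lipid anchor and has no cytoplasmic tail for catenins, so that it belongs to the family by its extracellular repeats only. *Cdh11* is in addition named by the study as a reported GLIS2 target.

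In GRCm38 coordinates, 4 of the 5 cadherins lie on chromosome 8. *Cdh3* (ENSMUSG00000061048, 106510891 to 106557297, plus strand) and *Cdh1* (ENSMUSG00000000303, 106603351 to 106670246, plus strand) are neighbours, 46.1 kb apart. *Cdh11* (ENSMUSG00000031673, 102632095 to 102785642, minus strand) and *Cdh13* (ENSMUSG00000031841, 118283733 to 119324921, plus strand) lie farther off, and *Cdh13* spans 1041.2 kb. *Cdh2* (ENSMUSG00000024304, 16588877 to 16809246, minus strand) and *Ctnna1* (ENSMUSG00000037815, 35118859 to 35254779, plus strand) are on chromosome 18. *Ctnnb1* (ENSMUSG00000006932, 120929216 to 120960507, plus strand) is on chromosome 9 and *Ctnnd1* (ENSMUSG00000034101, 84600071 to 84650765, minus strand) on chromosome 2. Each value below is for the whole gene, since the counts were summed over its transcripts.

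Total counts per library lay between 24996524 and 31393917, and the 8 genes held between 0.181% and 0.206% of them. *Glis2* itself was not absent from the knockout libraries, with 10.1, 17.0 and 16.3 CPM in Glis2-/- against 21.8, 23.2 and 19.6 CPM in Glis2+/+ replicates 1 to 3 (CPM are counts scaled to the effective size of each library by TMM normalization). These values ran in the direction of the labels without overlap, and edgeR estimated −0.57 ± 0.22 (standard error) on the log2 scale, with an adjusted p of 0.906. In the sorted cells the luminal keratin *Krt8* stood at 1238 CPM or above and the basal keratin *Krt14* at 326.8 CPM or above in every library, so that markers of both layers were present. Transcripts of other cell types were also present. The summed level of 14 fibroblast markers lay between 3181 and 9386 CPM in Glis2+/+ and between 3670 and 7750 CPM in Glis2-/- libraries, and that of 10 endothelial markers between 136.1 and 687 CPM and between 201.8 and 675 CPM. The summed immune markers were low, from 30.1 to 62.4 CPM in Glis2+/+ and from 72.3 to 128 CPM in Glis2-/- libraries. They did not overlap between the genotypes. Of the 9 immune markers tested, 8 had a log2 fold change above 0, and the median over the 9 was 1.17. An unadjusted p under 0.05 in edgeR was obtained for 5 of the 9, beside 5.32% of all genes, and 0 were called. These 5 include *Adgre1*, which was lower in Glis2-/- libraries, at −1.56 (unadjusted p = 0.0431 in edgeR). *Ptprc*, which encodes the CD45 protein stained for in the sort, lay between 7.98 and 11.02 CPM in Glis2+/+ and between 14.5 and 38.7 CPM in Glis2-/- libraries. The part of immune transcripts in the members' values was not tested. No marker of these lists was at 0 counts in all libraries, and *Pecam1*, which encodes the CD31 protein stained for in the sort, lay between 44.6 and 198 CPM. Replicate 2 of each genotype had the lowest fibroblast and endothelial levels of its genotype. Fewer cells of a type and less RNA per cell cannot be told apart in such libraries.

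The levels of the members per length, as the TPM values that the study computed, spanned from α-catenin to cadherin-11. *Ctnna1* was the highest, with 67.0, 67.6 and 71.5 TPM in Glis2+/+ replicates 1 to 3 and 60.2, 53.1 and 58.6 TPM in Glis2-/- replicates 1 to 3. *Ctnnb1* followed with a mean of 37.4 TPM over the 6 libraries, *Cdh1* with 29.8 and *Ctnnd1* with 15.7 TPM. *Ctnna1* exceeded *Ctnnb1* in 6 of 6 libraries without overlap of their ranges. *Ctnnb1* and *Cdh1* could not be ordered beyond their spread, since *Ctnnb1* was the higher in 5 of 6 libraries and the ranges overlapped.

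The other cadherins were well below *Cdh1*. *Cdh3* had a mean of 5.56 TPM over the 6 libraries, *Cdh13* of 3.41, *Cdh2* of 2.42 and *Cdh11* of 0.669 TPM. *Ctnnd1* exceeded *Cdh3* in 6 of 6 libraries and *Cdh2* exceeded *Cdh11* in 6 of 6 libraries, in both cases without overlap. The range of *Cdh13* overlapped that of *Cdh3* above it and that of *Cdh2* below it, with the higher of each neighbouring pair higher in 5 of 6 libraries, while the lowest *Cdh3* value (4.52 TPM) was above the highest *Cdh2* value (3.56 TPM). A single gene, Gm23935, annotated as a microRNA, held 83.0% to 85.7% of each library's TPM. Within a library this lowers the TPM of all others alike and leaves the order of the members as it is. Between libraries its share differed, and TPM values compared between libraries carry that difference.

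**Figure D1:**
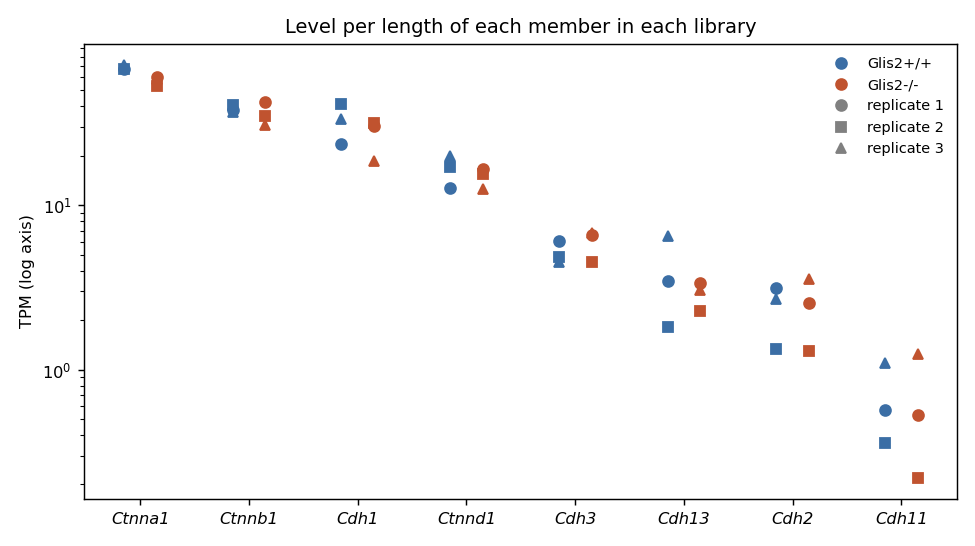
Level per length (TPM, log axis) of the 8 genes in each library, ordered by their mean, with Glis2+/+ in blue and Glis2-/- in orange and a symbol for each replicate number. *Ctnna1* sits between 53.1 and 71.5 TPM and *Cdh11* between 0.218 and 1.24 TPM, and the points of *Cdh13* overlap those of *Cdh3* and of *Cdh2*.

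To see whether the adhesion machinery differed with loss of *Glis2*, Glis2-/- and Glis2+/+ libraries were tested with the quasi-likelihood method of edgeR on the 21236 genes that passed the filter on low counts. Calling a gene required an adjusted p no higher than 0.05 together with a log2 fold change of 0.58 or more in size. Of the 8 members, 0 were called, against 0% of all genes tested, and their adjusted p lay between 0.919 and 0.993 in edgeR. An unadjusted p under 0.05 was obtained for 0 of the 8 members and for 5.32% of all genes, and DESeq2 with apeglm also called 0 members, with adjusted p of at least 0.930, against 0.165% of the 27248 genes to which it gave an adjusted p. The CPM values of the genotypes overlapped for each of the 8 members, and 11.7% of all genes did not overlap. The members' median log2 fold change was 0.067, beside 0.011 over all genes, with 5 above 0.

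The 3 catenins were nearly level across mice. *Ctnna1* stood at 538, 555 and 585 CPM in Glis2+/+ replicates 1 to 3 and at 554, 557 and 548 CPM in Glis2-/- replicates 1 to 3. The 3 knockout libraries lay inside the range of the wild-type libraries, and the highest of the 6 was 1.09-fold above the lowest. Its log2 fold change (Glis2-/- minus Glis2+/+, as in all that follow) was −0.02 (standard error 0.08), with a 95% interval from −0.20 to 0.16 and an adjusted p of 0.992 in edgeR, and it turned to 0.0160 without Glis2+/+ replicate 3. The within-genotype SD of its log2 CPM was 0.044, smaller than that of all but 1.15% of the 9926 genes with a mean of at least 10 CPM, whose median SD was 0.183.

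On the TPM scale, by contrast, *Ctnna1* was lower in each Glis2-/- library than in each Glis2+/+ library. The difference of log2(TPM + 1) was −0.26, with an adjusted p of 0.738 in limma. The median of all genes tested was −0.064, and relative to it the difference was −0.20. The genotypes of *Ctnna1* thus overlapped in CPM and not in TPM, and it was called in neither. These TPM values carry the share of Gm23935 in each library. This share was 85.5%, 83.1% and 83.0% in Glis2+/+ and 83.6%, 85.7% and 85.6% in Glis2-/- replicates 1 to 3. Whether the genotypes overlap in TPM without Gm23935 was not tested. The length assigned to *Ctnna1* relative to the median gene varied 1.198-fold over the libraries. Over genes with a mean of at least 10 CPM the median of this range was 1.24-fold.

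*Ctnnb1*, whose protein is shared between the junction and Wnt signaling, had 436, 463 and 424 CPM in Glis2+/+ and 464, 484 and 430.1 CPM in Glis2-/- replicates 1 to 3. The genotypes overlapped, with the highest and lowest libraries 1.14-fold apart. The log2 fold change of *Ctnnb1* was 0.06 (standard error 0.09), with a 95% interval from −0.14 to 0.26 and an adjusted p of 0.974 in edgeR. It was 0.01 without Glis2-/- replicate 2, and in limma on log2(TPM + 1) it turned to −0.11, or −0.04 relative to the median gene.

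*Ctnnd1*, which keeps cadherins at the membrane, varied more than the other catenins. It stood at 156, 185 and 193 CPM in Glis2+/+ and at 188, 209 and 173 CPM in Glis2-/- replicates 1 to 3, and the lowest and the highest library came from different genotypes with the rest between them. The log2 fold change was 0.09 ± 0.12 (standard error), with a 95% interval from −0.18 to 0.36 and an adjusted p of 0.972 in edgeR. It turned to −0.0136 without Glis2+/+ replicate 1 and to −0.13 in limma on log2(TPM + 1), or −0.07 relative to the median gene. *Gm28635*, a protein-coding annotation that overlaps *Ctnnd1* on its strand, held 570 to 1016 counts per library, and the log2 fold change of their summed counts was 0.11 (adjusted p = 0.948 in edgeR). The 95% intervals of the 3 catenins exclude a change of 0.58 on the log2 scale in either direction, so that a difference of the size used for calling lay outside these intervals.

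**Figure D2:**
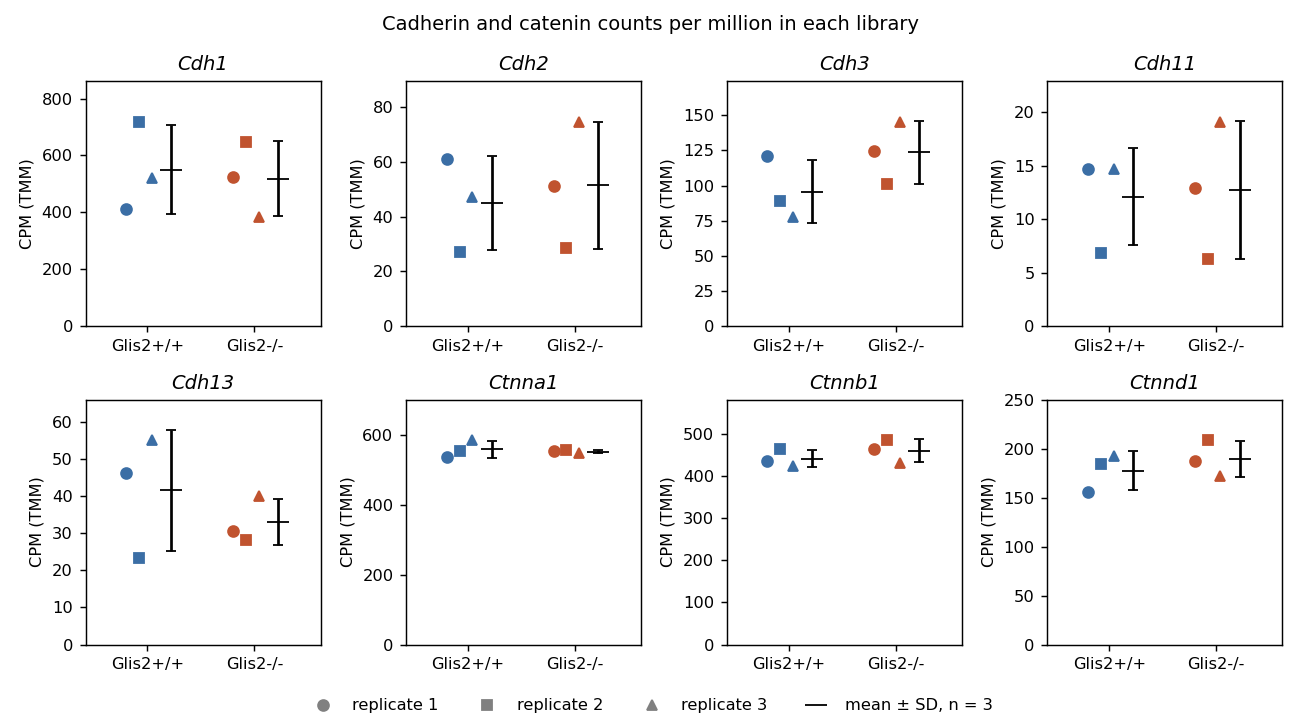
CPM after TMM normalization of each member in each library, with a symbol for each replicate number and the mean ± SD (n = 3 mice) beside the points. The genotypes overlap in all 8 panels, the *Ctnna1* points sit between 538 and 585 CPM, and replicate 2 of each genotype is the highest for *Cdh1* and the lowest for *Cdh2* and *Cdh11*.

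In CPM, each of the 5 cadherins varied more from mouse to mouse than each of the 3 catenins, with the highest library 1.87-fold to 3.06-fold above the lowest. In TPM, which carry the differing share of Gm23935 in each library, the order held except for *Cdh3*. The 1.49-fold range of *Cdh3* was below the 1.57-fold range of *Ctnnd1*. Whether this exception stands without Gm23935 was not tested. *Cdh1* had 410.4, 718 and 521.5 CPM in Glis2+/+ replicates 1 to 3 and 524, 649 and 384 CPM in Glis2-/- replicates 1 to 3. Replicate 2 was the highest of each genotype, and the spread within a genotype, 1.75-fold in Glis2+/+ and 1.69-fold in Glis2-/-, exceeded the difference between them. Glis2+/+ libraries averaged 550 ± 156 CPM and Glis2-/- libraries 519 ± 133 CPM (SD, n = 3 mice each). The log2 fold change of *Cdh1* was −0.08 (standard error 0.23), with a 95% interval from −0.62 to 0.45 and an adjusted p of 0.982 in edgeR. Its sign rested on single libraries, with 0.16 without Glis2+/+ replicate 2 and 0.08 without Glis2-/- replicate 3. With log2(TPM + 1) in limma the difference of *Cdh1* was −0.28 (adjusted p = 0.818), or −0.22 relative to the median gene.

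*Cdh3* had the smallest unadjusted p of the 8 members, 0.0875 in edgeR, which does not pass before or after adjustment. It stood at 121, 88.9 and 77.2 CPM in Glis2+/+ and at 125, 101 and 145 CPM in Glis2-/- replicates 1 to 3. The Glis2-/- libraries held the 2 highest values, and Glis2+/+ replicate 1 lay above Glis2-/- replicate 2, so that the groups overlapped. Averages were 95.7 ± 22.7 CPM for Glis2+/+ and 124 ± 22.3 CPM for Glis2-/- (SD, n = 3 mice each). The log2 fold change of *Cdh3* was 0.37 (standard error 0.19), with a 95% interval from −0.07 to 0.80 and an adjusted p of 0.919 in edgeR. It was above 0 in each of the 13 alternative fits, those without each mouse in turn (0.22 to 0.56) included, with 0.17 in limma on log2(TPM + 1) and 9.28e-06 after the shrinkage of apeglm.

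Markers of the basal layer were higher in the same genotype as *Cdh3*. The summed level of 12 basal markers, among them *Krt14*, *Acta2*, *Myh11* and *Trp63*, was 5096 to 6655 CPM in Glis2+/+ and 6906 to 8494 CPM in Glis2-/- libraries, without overlap, and each of the 12 had a log2 fold change above 0. In an exact permutation test on the mean log2 CPM of these markers p was 0.1, the smallest that 3 mice against 3 can give, and 0 of the 12 were called in edgeR, while 7 of the 12 had an unadjusted p under 0.05 in edgeR, beside 5.32% of all genes. Set against the mean log2 CPM of these markers in the same library, *Cdh3* lay at −1.60, −1.94 and −1.88 in Glis2+/+ and at −1.78, −1.99 and −1.77 in Glis2-/- libraries on the log2 scale. The difference was then −0.04 (two-sided exact permutation p = 0.8) in place of 0.37, an alternative chosen after seeing the data. Taken in the same way, the difference was −0.07 for *Cdh1* relative to the luminal markers (two-sided exact permutation p = 0.6). Relative to the fibroblast markers it was 0.18 for *Cdh2*, 0.03 for *Cdh11* and −0.24 for *Cdh13* (two-sided exact permutation p = 0.4, 0.9 and 0.2).

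*Cdh11* and *Cdh2* were the most variable members in CPM, and *Cdh11* and *Cdh13* in TPM, where the highest library was 5.69-fold, 3.59-fold and 2.76-fold above the lowest for *Cdh11*, *Cdh13* and *Cdh2*. *Cdh2* had 61.0, 26.9 and 47.2 CPM in Glis2+/+ and 51.1, 28.5 and 74.7 CPM in Glis2-/- replicates 1 to 3, and replicate 2 was the lowest of each genotype. The log2 fold change was 0.19 ± 0.37 (standard error), with a 95% interval from −0.65 to 1.04 and an adjusted p of 0.977 in edgeR. The sign turned without Glis2+/+ replicate 2 (−0.07) and without Glis2-/- replicate 3 (−0.19), and with log2(TPM + 1) in limma the difference was 0.02, or 0.09 relative to the median gene.

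*Cdh11* had 454, 196 and 384 counts in Glis2+/+ and 323, 187 and 598 counts in Glis2-/- replicates 1 to 3. As CPM these were 14.7, 6.86 and 14.7, and 12.9, 6.24 and 19.1. The Glis2-/- libraries thus held both the lowest and the highest value, 3.06-fold apart. The log2 fold change of *Cdh11* was 0.08 (standard error 0.43), with a 95% interval from −0.90 to 1.05, or from 0.535-fold to 2.08-fold, and an adjusted p of 0.993 in edgeR. Without Glis2+/+ replicate 2 it was −0.21 and without Glis2-/- replicate 3 it was −0.36, with adjusted p of 0.971 and 0.933 in edgeR, and in limma on log2(TPM + 1) it was −0.0334, or 0.03 relative to the median gene.

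The within-genotype SD of log2 CPM was 0.73 for *Cdh11* and 0.65 for *Cdh2*, larger than for 97.0% and 96.1% of the genes with a mean of at least 10 CPM. For *Cdh11* the length that the quantification assigned to the gene also differed between libraries, as the ratio of its counts to its TPM shows. Relative to the median gene of the same library this ratio ranged 1.83-fold over the 6 libraries for *Cdh11* and 1.45-fold for *Cdh13*, against a median of 1.24-fold over genes with a mean of at least 10 CPM and 1.01-fold for *Cdh3*. The TPM values of *Cdh11*, from 0.218 to 1.24, accordingly spread more widely than its CPM values.

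*Cdh13*, the lipid-anchored member, had 46.1, 23.4 and 55.0 CPM in Glis2+/+ and 30.5, 28.2 and 40.0 CPM in Glis2-/- replicates 1 to 3. The Glis2-/- libraries lay inside the range of the Glis2+/+ libraries. *Cdh13* averaged 41.5 ± 16.3 CPM across Glis2+/+ and 32.9 ± 6.23 CPM across Glis2-/- mice (SD, n = 3 each). The fitted log2 fold change was −0.33 (standard error 0.29), with a 95% interval from −0.996 to 0.33 and an adjusted p of 0.942 in edgeR. The sign of *Cdh13* held in each of the 13 alternative fits, while its size was −0.62 when Glis2+/+ replicate 2 was left out (adjusted p = 0.740 in edgeR) and −0.08 when Glis2+/+ replicate 3 was.

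**Figure D3:**
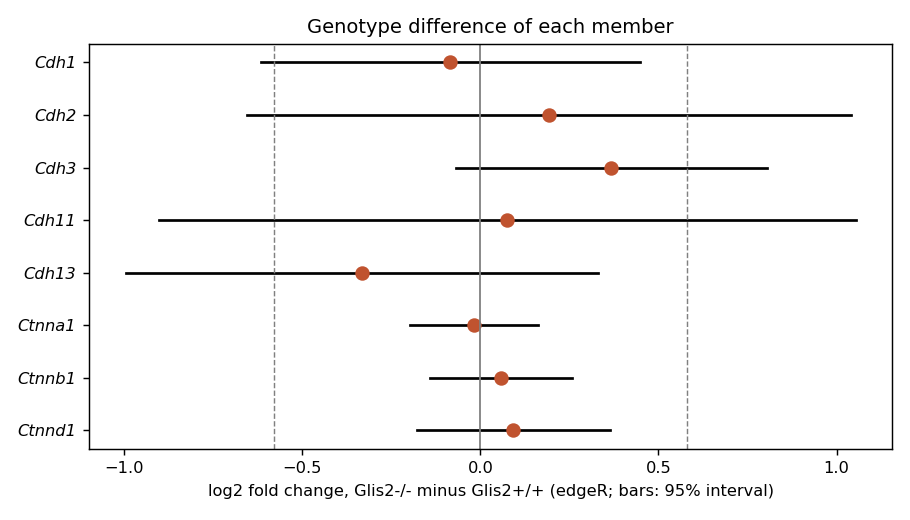
Log2 fold change of each member (points) with its 95% interval (bars) from the edgeR fit, with dashed lines at −0.58 and 0.58. The intervals of all 8 genes include 0, those of the 3 catenins stay within the dashed lines, and those of *Cdh2* and *Cdh11* reach beyond 1.

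E-cadherin was the most abundant of the 5 cadherin members in each library. Of the summed TPM of the 5 cadherins, *Cdh1* held 64.2%, 83.2% and 69.2% in Glis2+/+ and 69.9%, 79.1% and 56.1% in Glis2-/- replicates 1 to 3. *Cdh3* held between 9.41% and 20.3%, *Cdh13* between 3.65% and 13.6%, *Cdh2* between 2.67% and 10.7% and *Cdh11* between 0.55% and 3.73%. The *Cdh1* share was highest in replicate 2 of each genotype and lowest in Glis2-/- replicate 3. These shares leave out other cadherins, of which *Cdh5* was above *Cdh3* in 4 of 6 libraries and below it in replicate 2 of each genotype. Over 19 cadherins, the 5 members and the 14 others listed below, *Cdh1* held 42.3%, 76.3% and 50.6% in Glis2+/+ and 56.0%, 70.7% and 37.9% in Glis2-/- replicates 1 to 3.

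Ratios of TPM within a library were compared for 6 pairs by exact permutation tests. Such ratios do not depend on the scaling of the library, but they carry the length assigned to each gene in it. The *Cdh3*/*Cdh1* ratio was 0.258, 0.117 and 0.136 in Glis2+/+ and 0.219, 0.143 and 0.362 in Glis2-/- replicates 1 to 3, a difference of 0.49 on the log2 scale (two-sided exact p = 0.4), which ranged from 0.15 to 0.83 when 1 mouse was left out. The *Cdh2*/*Cdh1* ratio, a common readout of a cadherin switch, was 0.132, 0.0321 and 0.0804 in Glis2+/+ and 0.0839, 0.0409 and 0.191 in Glis2-/- replicates 1 to 3, a difference of 0.31 (two-sided exact p = 0.7) that turned to −0.25 without Glis2+/+ replicate 2 and also without Glis2-/- replicate 3. It differed 4.12-fold among Glis2+/+ mice and 4.66-fold among Glis2-/- mice. The *Cdh11*/*Cdh1* and *Cdh13*/*Cdh1* ratios differed between genotypes by 0.07 and 0.02 on the log2 scale (two-sided exact p = 1 for each), and both turned below 0 without either of the same libraries (−0.27 to −0.79).

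Catenin ratios were narrower. *Ctnnb1*/*Ctnna1* lay between 0.517 and 0.707 over the 6 libraries and differed by 0.15 on the log2 scale between genotypes (two-sided exact p = 0.3), or by 0.07 as a ratio of counts and by 0.06 to 0.28 without 1 mouse. *Ctnnd1*/*Ctnna1* lay between 0.189 and 0.290 and differed by 0.13 (two-sided exact p = 0.6), which turned to −0.0381 without Glis2+/+ replicate 1. Adjusted over the 6 ratios, p was 1 for each, and the smallest p that 3 mice against 3 allow is 0.1. The highest *Ctnnb1*/*Ctnna1* ratio was 1.37-fold above the lowest, against 9.60-fold for *Cdh11*/*Cdh1*. As a ratio of TPM the latter carries the length assigned to *Cdh11*, which ranged 1.835-fold over the libraries relative to the median gene.

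Across mice, the cadherins were set against the markers of the cell types in which they are known. Correlations over the 6 libraries were computed for 8 members against the mean log2 CPM of 3 lists, of basal, luminal and fibroblast markers, 24 in all, and with exact permutation over the 720 pairings 0 of the 24 had an adjusted p of at most 0.05. *Cdh1* against the luminal markers had a Pearson's r of 0.971 (exact p = 0.00972, adjusted p = 0.0857) and a Spearman's rho of 0.943 (exact p = 0.0167, adjusted p = 0.1). Without the 2 libraries farthest from the median, Glis2-/- replicate 3 and Glis2+/+ replicate 1, its r was 0.916. *Cdh2* had the opposite sign, with an r of −0.936 (exact p = 0.0181, adjusted p = 0.0857) and a rho of −0.886 (exact p = 0.0333, adjusted p = 0.16) against the luminal markers, and −0.951 without these libraries. For *Cdh11* against the luminal markers r was −0.883 (exact p = 0.0389, adjusted p = 0.117) and rho −0.943 (exact p = 0.0167, adjusted p = 0.1). Without the same libraries the r of *Cdh11* was −0.999.

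*Cdh3* against the basal markers had an r of 0.917 (exact p = 0.0125, adjusted p = 0.0857) and a rho of 0.943 (exact p = 0.0167, adjusted p = 0.1), and 0.651 without Glis2+/+ replicate 3 and Glis2-/- replicate 3. *Cdh13* against the fibroblast markers had an r of 0.916 (exact p = 0.0125, adjusted p = 0.0857) and a rho of 0.943 (exact p = 0.0167, adjusted p = 0.1), and 0.877 without replicate 2 of both genotypes. For *Cdh11* against the fibroblast markers r was 0.92 (exact p = 0.025, adjusted p = 0.0857) and rho 0.714 (exact p = 0.136, adjusted p = 0.297). Without replicate 2 of both genotypes r was 0.549 for *Cdh11*, so that this relation rests on those libraries. The same held for *Cdh2* and the fibroblast markers, with an r of 0.903 (exact p = 0.0236, adjusted p = 0.0857), a rho of 0.714 (exact p = 0.136, adjusted p = 0.297) and 0.317 without them. *Ctnna1* against the fibroblast markers had an r of 0.012 (exact p = 0.982, adjusted p = 0.982) and a rho of −0.371 (exact p = 0.497, adjusted p = 0.628). The other catenins were less flat. *Ctnnb1* against the fibroblast markers had an r of −0.802 (exact p = 0.0556, adjusted p = 0.133), a rho of −0.657 (exact p = 0.175, adjusted p = 0.35) and −0.925 without replicate 2 of both genotypes. *Ctnnd1* against the luminal markers had an r of 0.811 (exact p = 0.0458, adjusted p = 0.122), a rho of 0.714 (exact p = 0.136, adjusted p = 0.297) and 0.416 without Glis2-/- replicate 3 and Glis2+/+ replicate 1. *Cdh1* against the fibroblast markers had an r of −0.9 (exact p = 0.0181, adjusted p = 0.0857), a rho of −0.829 (exact p = 0.0583, adjusted p = 0.233) and −0.545 without replicate 2 of both genotypes.

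The mean log2 CPM of the endothelial markers had the same low libraries, with deviations from the mean of the 6 libraries of −1.42 in Glis2+/+ replicate 2 and −1.02 in Glis2-/- replicate 2. Fibroblast and endothelial content therefore cannot be told apart beside *Cdh2* and *Cdh11*. The correlations were taken over both genotypes together, and none was computed within a genotype. The part of these cell types in the differences between mice was not tested.

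**Figure D4:**
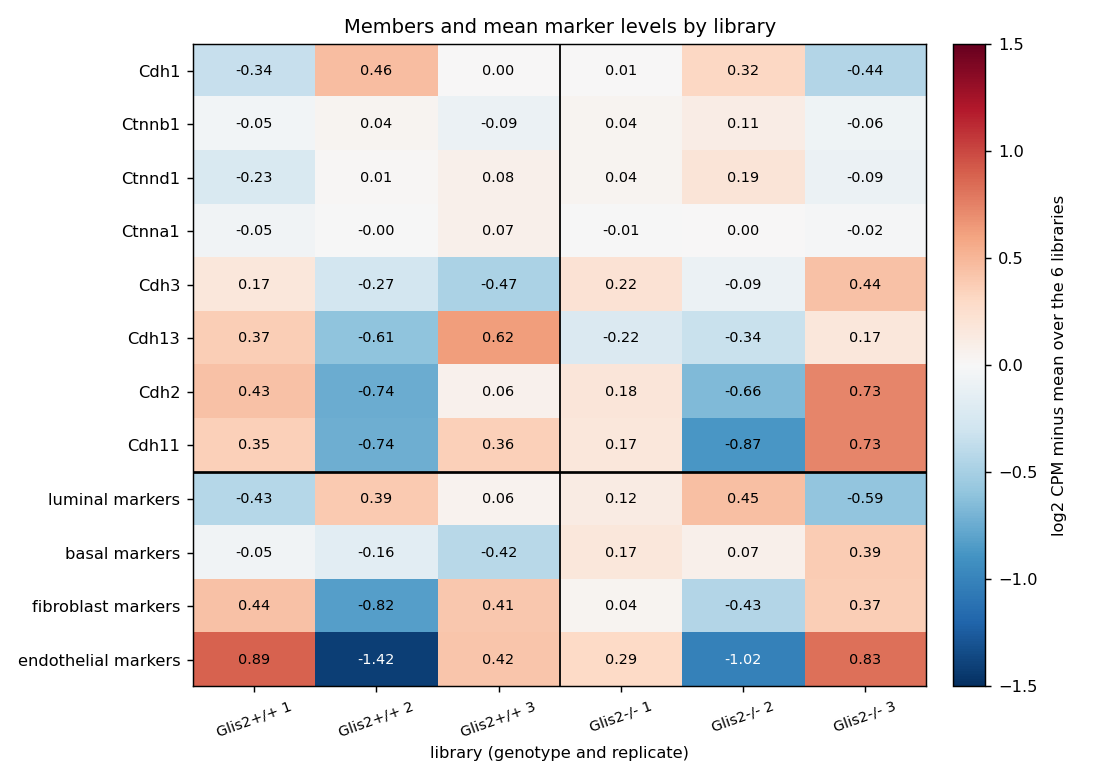
Deviation of log2 CPM from the mean over the 6 libraries for each member (upper rows) and for the mean of 4 marker lists (lower rows), with Glis2+/+ left and Glis2-/- right of the line and red above the mean. In replicate 2 of each genotype *Cdh1* and the luminal markers are above the mean and *Cdh2*, *Cdh11* and the fibroblast and endothelial markers below it, while the *Ctnna1* row stays between −0.05 and 0.07.

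**Figure D5:**
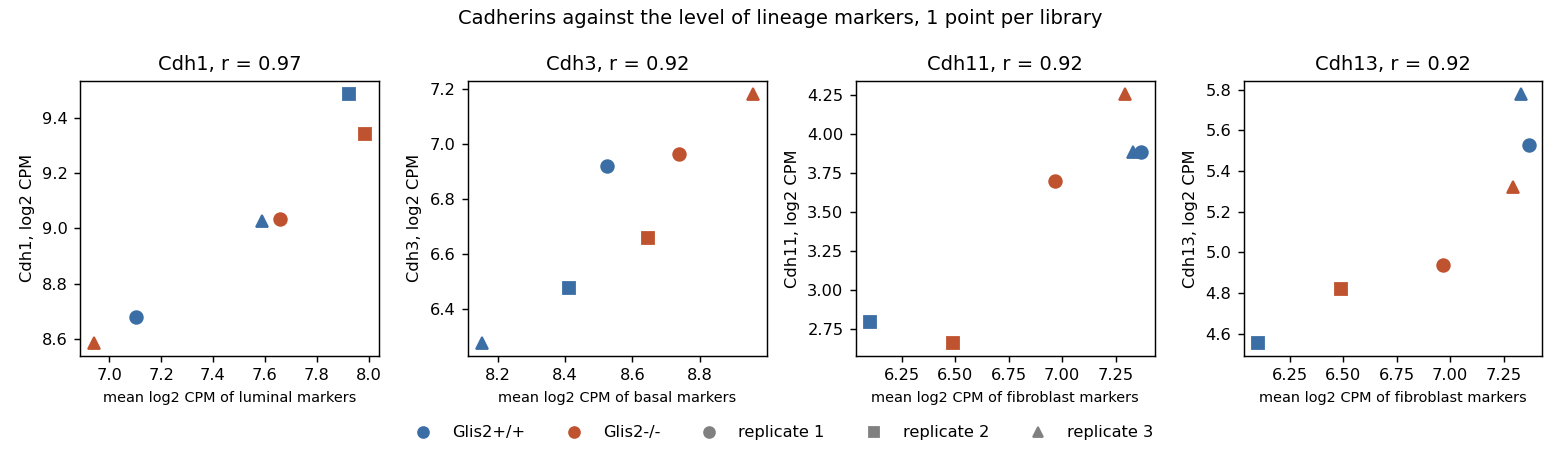
Log2 CPM of *Cdh1*, *Cdh3*, *Cdh11* and *Cdh13* against the mean log2 CPM of luminal, basal or fibroblast markers, with 1 point for each library, colours for genotype and symbols for replicate number. Pearson's r over the 6 libraries is 0.971, 0.917, 0.92 and 0.916, and for *Cdh11* the 2 lowest points are replicate 2 of each genotype.

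The genes whose pattern over the 6 libraries was most like that of each member were ranked by Pearson's r of log2 CPM among 9454 protein-coding genes, as a description without a test. *Cdh1* was matched most closely by *Sox9* (r = 0.9999), a transcription factor of mammary progenitor cells, and *Rbm47* (r = 0.997), an RNA-binding protein gene, with 168 genes above 0.95. *Cdh3* was closest to *Lfng* (r = 0.997), which encodes a Fringe glycosyltransferase that modifies Notch receptors, and *Sh3bp5* (r = 0.993). *Cdh2* was closest to *Ushbp1* and *Itpkb* (r = 0.997 for each), *Cdh11* to *Rasgrp3* (r = 0.992) and *Bnip2* (r = 0.992), and *Cdh13* to *Usp39* (r = 0.995) and *Esyt1* (r = 0.993).

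For the catenins the closest genes were *Ip6k2* (r = 0.992) and *Fbxo22* (r = 0.980) for *Ctnna1*, *Thap2* (r = 0.997) and *Rnf111* (r = 0.996) for *Ctnnb1*, and *Trmt1l* (r = 0.992) and *Ptpn1* (r = 0.990) for *Ctnnd1*. *Ptpn1* encodes a tyrosine phosphatase that acts on cadherin complexes. Only 13 genes were above 0.95 for *Ctnna1*, whose differences between libraries were the smallest of the members. With 6 points such values are reached by many genes, as these numbers show.

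Other genes of the adherens junction were read from the same fit in 4 lists of 56 genes, 50 of which were tested. Of the 50, 0 were called in edgeR in either direction, 0 had an unadjusted p under 0.05 in edgeR, and 6, or 12%, did not overlap between the genotypes, beside 11.7% of all genes. Their median log2 fold change was 0.011, equal to that of all genes tested.

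Among 14 other classical cadherins 9 were tested, with a median log2 fold change of −0.14. The smallest unadjusted p belonged to *Cdh15*, the muscle M-cadherin, at −1.37 (standard error 0.76) on 0.30 to 3.11 CPM, to *Cdh18* at 0.89 (standard error 0.55) and to *Cdh19* at −0.70 (standard error 0.53), with overlapping genotypes for each. *Cdh5*, the cadherin of endothelial junctions, named here after its values were seen, had the highest mean of them, 8.38 TPM, with a range from 2.34 to 13.6 TPM that overlapped that of *Cdh3*. It had 225, 35.9 and 164 CPM in Glis2+/+ and 122, 51.5 and 213 CPM in Glis2-/- replicates 1 to 3, with the lowest value of each genotype again in replicate 2.

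Of 8 other catenins and armadillo relatives 7 were tested, with a median of 0.03. *Jup*, the γ-catenin shared with desmosomes and named after its values were seen, varied as little as the 3 catenins above, with 317 to 331 CPM in Glis2+/+ and 318 to 357 CPM in Glis2-/- libraries and a mean of 40.2 TPM. By the rule for named genes, *Ctnna3*, an α-catenin of heart and testis, stood at a log2 fold change of −0.85 (standard error 0.51), *Pkp4* of 0.11 (standard error 0.13) and *Ctnnbip1*, an inhibitor of β-catenin, of −0.18 (standard error 0.12). The 3 Glis2-/- libraries of *Ctnnbip1*, at 34.0, 28.5 and 30.9 CPM, lay below those of Glis2+/+, at 35.1, 35.1 and 35.3 CPM, with an adjusted p of 0.941 in edgeR.

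All 18 linkers and nectins were tested, with a median log2 fold change of 0.01 and a range from −0.14 to 0.35. *Ajuba*, which encodes a LIM protein recruited to α-catenin, was at 0.35 (standard error 0.17, adjusted p = 0.906 in edgeR), *Nectin2*, an immunoglobulin-type adhesion gene, at 0.19 (standard error 0.14, adjusted p = 0.941) and *Iqgap1*, a scaffold of actin and β-catenin, at −0.14 (standard error 0.09, adjusted p = 0.940). *Vcl*, which encodes the vinculin that binds α-catenin under tension, and is named after its values were seen, was at 0.03 (standard error 0.10). The genotypes of *Nectin2* did not overlap.

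All 16 genes of cadherin turnover and processing were tested, with a median of 0.04. *Pip5k1c*, which encodes a lipid kinase, was at 0.25 (standard error 0.12, adjusted p = 0.906 in edgeR), *Cbll1*, the E3 ligase Hakai that targets E-cadherin, at −0.23 (standard error 0.18, adjusted p = 0.941) and the kinase *Src* at 0.12 (standard error 0.10, adjusted p = 0.941). *Adam10*, whose protease sheds the E-cadherin ectodomain and which is also named after its values were seen, was at 0.05 (standard error 0.14).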

How the data were processed

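RNA was taken from sorted mammary cells of 6 mice and made into libraries with a stranded low-input kit. The authors estimated counts with Salmon 1.2.1 on an mm10 transcriptome and summed them to genes, and the deposited estimated counts are whole numbers without scaling. A second deposited table holds log2(TPM + 1) as the authors computed it. Symbols of 54166 of 54418 identifiers and positions came from GENCODE M21 (GRCm38). Library depth was 24996524 to 31393917 counts.

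Groups were taken from the labels, as were replicate numbers. The counts were fitted with edgeR 4.0.16 (R 4.3.3, filterByExpr, TMM, glmQLFit and glmQLFTest, genotype as the only term), with Benjamini-Hochberg adjustment over 21236 genes. The standard error was the log2 fold change divided by the square root of F, and the 95% interval used the t distribution with the fit's total degrees of freedom. Alternatives used DESeq2 1.42.0 with apeglm 1.24.0, limma 3.58.1 on log2(TPM + 1) and log2(TPM + 0.1), other filters (none, or at least 10 counts in every sample), DESeq2 size factors, a block for replicate number, and fits without each mouse. The fits were tested on simulated counts. Ratios, marker levels and correlations used exact permutation tests (two-sided). The values for *Ctnnd1* summed with *Gm28635* and members relative to marker lists, were chosen after seeing the data.

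The 8 members and the lists were chosen with earlier results of these data known. The genes named are the 8 members, *Glis2*, in each of the 4 pathway lists the genes called or else the 3 with the smallest unadjusted p, the markers set beside a result, and for each member the 2 protein-coding genes with the highest Pearson's r over the 6 libraries among genes with a mean of at least 10 CPM. Others (*Cdh5*, *Jup*, *Vcl*, *Adam10*, *Gm28635*, Gm23935) were named after their values were seen. The lists of basal, luminal, fibroblast, endothelial, immune and adipocyte markers were set with the pathway lists. The summed adipocyte markers lay between 86.3 and 339 CPM in Glis2+/+ and between 123 and 296 CPM in Glis2-/- libraries. Each p-value of a genotype comparison sets the difference against the variation between these mice. The p-values of the correlations come from the 720 pairings of the 6 libraries.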

Additional observations from a re-analysis of the deposited data

How the results depend on the processing

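The count of members called was 0 in the edgeR fit and in each of 13 alternatives. Over all genes, the edgeR count of 0 (1130 at an unadjusted p under 0.05) became 45 with DESeq2 and apeglm, 40 without a filter on low counts and 1 with log2(TPM + 0.1) in limma, and was 0 in the other alternatives. The 13 alternatives kept the direction of 2 members, *Cdh3* and *Cdh13*, and turned that of the other 6 at least once. In limma, *Cdh11*, *Ctnnb1* and *Ctnnd1* turned to −0.0334, −0.11 and −0.13 with log2(TPM + 1) and to −0.15, −0.11 and −0.14 with log2(TPM + 0.1), where the median of all genes lay at −0.064 and −0.139. Relative to these medians, they stood at 0.03, −0.04 and −0.07 with an offset of 1 and at −0.01, 0.03 and 0.00 with an offset of 0.1. Without 1 mouse, the log2 fold changes ranged from −0.29 to 0.16 for *Cdh1*, −0.19 to 0.48 for *Cdh2*, −0.36 to 0.40 for *Cdh11*, −0.0624 to 0.0160 for *Ctnna1* and −0.0136 to 0.16 for *Ctnnd1*. The ratios without 1 mouse ranged from 0.15 to 0.83 for *Cdh3*/*Cdh1*, 0.06 to 0.28 for *Ctnnb1*/*Ctnna1* (0.07 as a ratio of counts), −0.25 to 0.86 for *Cdh2*/*Cdh1*, −0.79 to 0.84 for *Cdh11*/*Cdh1*, −0.63 to 0.45 for *Cdh13*/*Cdh1* and −0.0381 to 0.26 for *Ctnnd1*/*Ctnna1*, and *Cdh13*/*Cdh1* was −0.18 as a ratio of counts. The direction of *Cdh3* turned to −0.038 relative to the basal markers, an alternative chosen after seeing the data. The count of 0 correlations past an adjusted p of 0.05 stood also with log2(TPM + 1) and with the median over markers. Single values of r moved with log2(TPM + 1). Against the fibroblast markers r became −0.209 for *Ctnnb1* and −0.547 for *Cdh1*, and against the luminal markers −0.568 for *Cdh11*. It stood at 0.974 for *Cdh1* against the luminal markers, 0.873 for *Cdh3* against the basal and 0.885 for *Cdh13* against the fibroblast markers. The causes of these changes were not tested.

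Replicate numbers do not pair the mice: the correlations of same-numbered deviations from the genotype means were −0.022, 0.173 and 0.023. With a replicate block, 0 genes and 0 members were called, and the log2 fold change of *Cdh3* was 0.38 (adjusted p = 0.815 in edgeR). The least deeply counted member was *Cdh11*, with 187 to 598 counts per library.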
